A study of Rattus norvegicus with 3 samples.

Results

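Foxn1, Pax1, Pax9, Eya1, Tbx1, Tp63 and Hoxa3 are transcriptional regulators known for building or keeping thymic epithelium, and all 7 names were found among the 34034 features of a stromal single-cell count matrix. They were picked as a named set. The cells came from the thymus of Lewis rats, which are inbred, at 8 weeks of age, and no treatment or altered allele is named for any sample. After Liberase TH and DNase I digestion, cells without CD45, the surface protein of blood-derived cells, were enriched by magnetic and flow sorting and sequenced as 1 droplet library. A thymocyte library from the same kind of thymus, digested with collagenase D and DNase I, served here as cells that should lack these genes, and a spatial section of the series was not used here. Each group had 1 sample, so no test was possible: each difference described is one between cells of 1 library, and each interval, at 95%, covers the error of counting alone.

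The thymus grows from the third pharyngeal pouch of the embryo, whose epithelium is patterned by Hoxa3, Pax1, Pax9, Eya1 and Tbx1. Foxn1 then makes that epithelium competent to attract and instruct T cell precursors, and animals without it have no working thymus. Tp63 is the regulator of stratified epithelia and keeps thymic epithelial progenitors dividing. Mature thymic epithelial cells (TEC) are cortical (cTEC), which test new T cell receptors on self peptides, or medullary (mTEC), which present tissue antigens. Some medullary cells turn into mimetic cells, which copy peripheral types such as goblet, muscle or tuft cells.

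The authors' annotation gave 13226 of 16160 barcodes a label, and 24 of the 29 labels held at least 20 cells. The TEC labels counted 13, with 2295 cells and a median of 11372 UMIs (tags by which captured RNA molecules are counted) per cell. The 12 labels of mesenchymal, mural, mesothelial, neural and endothelial cells, called non-epithelial here, held 9827 cells with a median of 8748 UMIs, and 3 blood-derived labels held 1095 cells. A label TEPC of 9 cells was kept apart. The labels early Pr (early progenitor), aaTEC, TMC, capFb, MEC and nmSC are not all spelled out in the files and are used as given, without the prefixes TEC: and EC:. Median UMIs per label ran from 2648 to 18085. The stromal and thymocyte libraries shared 38 barcodes, 28 of them annotated in both.

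The TEC markers Epcam, Krt8, Krt18, Krt5, Krt14 and Cdh1 were all detected in each of the 10 TEC labels of at least 20 cells. Their summed level ran from 1988 counts per 1000000 UMIs of the label (CPM) in aaTEC2 to 10924 CPM in mTEC1, against 62.4 CPM in pooled non-epithelial cells. In aaTEC2 the 5 mesenchyme markers Pdgfra, Col1a1, Col1a2, Dcn and Lum summed to 23868 CPM, above its TEC markers. That label thus carried markers of both kinds, and its values are given as those of its 29 cells. Of these, 13 lay in cluster TEC-c, described below. The parathyroid genes Pth and Gcm2, of the other organ of the same pouch, had 0 UMIs in every TEC label. The labels and clusters are those of the authors, and a label is a projected one where given. The 7 genes described here may have been among those that set them, so differences between labels or clusters are descriptions.

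FOXN1 is known to bind DNA at the core GACGC, and RefSeq promoters were searched for it on both strands (GCGTC on the other) over the 250 bases before the start in build GRCr8. Of 33469 promoters of that length, 7258, or 21.7%, held it. The table had 7 entries for 6 of the 7 genes, and 4 of the 7 entries held the core. They were those of Pax1, Tp63, Hoxa3 and 1 of the 2 of Tbx1. Of 6 FOXN1-dependent genes with an entry 4 held it. Promoters are shown for Foxn1 and 3 genes described beside it below, and for Prss16, a thymic protease, and Ccl25, a chemokine that draws precursors, the FOXN1-dependent genes that differed most between cTEC and mTEC1. Capitals mark the core.
Foxn1: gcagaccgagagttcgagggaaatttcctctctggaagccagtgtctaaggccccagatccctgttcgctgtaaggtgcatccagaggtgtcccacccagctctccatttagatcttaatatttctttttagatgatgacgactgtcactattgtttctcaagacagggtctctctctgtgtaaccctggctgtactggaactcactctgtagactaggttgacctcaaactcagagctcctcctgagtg
Pax1: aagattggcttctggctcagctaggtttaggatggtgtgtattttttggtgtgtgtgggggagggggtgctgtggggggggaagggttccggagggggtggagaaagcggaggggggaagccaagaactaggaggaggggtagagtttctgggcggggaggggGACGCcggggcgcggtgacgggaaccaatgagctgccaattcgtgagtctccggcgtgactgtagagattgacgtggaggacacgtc
Pax9: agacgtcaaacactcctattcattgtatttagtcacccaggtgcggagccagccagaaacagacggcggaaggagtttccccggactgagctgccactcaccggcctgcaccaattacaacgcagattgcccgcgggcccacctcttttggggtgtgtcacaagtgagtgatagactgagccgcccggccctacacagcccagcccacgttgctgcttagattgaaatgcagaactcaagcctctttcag
Tp63: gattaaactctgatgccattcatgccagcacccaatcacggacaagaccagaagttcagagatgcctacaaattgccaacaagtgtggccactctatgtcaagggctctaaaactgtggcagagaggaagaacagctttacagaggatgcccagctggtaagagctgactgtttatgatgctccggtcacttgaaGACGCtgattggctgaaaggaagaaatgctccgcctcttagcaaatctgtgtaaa
Prss16: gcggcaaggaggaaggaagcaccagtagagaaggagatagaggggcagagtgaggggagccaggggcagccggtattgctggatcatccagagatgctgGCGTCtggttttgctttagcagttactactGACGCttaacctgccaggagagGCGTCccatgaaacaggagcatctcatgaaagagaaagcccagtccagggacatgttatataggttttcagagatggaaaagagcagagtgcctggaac
Ccl25: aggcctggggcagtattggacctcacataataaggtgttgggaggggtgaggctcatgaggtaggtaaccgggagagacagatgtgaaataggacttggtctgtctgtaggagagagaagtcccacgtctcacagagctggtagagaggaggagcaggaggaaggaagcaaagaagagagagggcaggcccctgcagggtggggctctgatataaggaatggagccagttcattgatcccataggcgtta

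The Foxn1 sequence lies at chr10:63771772-63772021 on the minus strand and holds no match, and that of Pax9 at chr6:79921551-79921800 on the plus strand also holds none. The Pax1 sequence at chr3:155245279-155245528, plus strand, holds 1, which starts 87 bases before the gene's start. The Tp63 sequence at chr11:88554178-88554427, minus strand, holds 1, at 55 bases. The Prss16 sequence at chr17:47209831-47210080, plus strand, holds 3, at 151, 121 and 99 bases, and that of Ccl25 at chr12:7504985-7505234, plus strand, holds none. No level was tested against these matches. These letters are a description and not evidence of binding, and no match says only that the core is not in that window.

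The first question was which of the genes marked epithelium among stromal cells. Foxn1, Pax1, Pax9, Eya1 and Tp63 were at least 3-fold higher in pooled TEC than in pooled non-epithelial cells, and Tbx1 and Hoxa3 were not. Of all 19390 genes with at least 20 UMIs, 15.8% were at least 3-fold higher and 11.2% at least 3-fold lower in TEC. Tp63 gave 342 CPM (336 to 349) in TEC against 2.01 (1.73 to 2.32), a ratio of 170 (147 to 198). Pax9, a paired-box factor of the pouch, gave 196 against 1.69 CPM, a ratio of 115 (98.5 to 136). Pax1, its close relative, gave 116 against 1.38 CPM, a ratio of 84.4 (70.7 to 102). Eya1, a phosphatase and transcriptional coactivator, gave 342 against 4.48 CPM, a ratio of 76.4 (69.2 to 84.5). Foxn1 gave 29.6 CPM (27.6 to 31.6) against 0.619 (0.469 to 0.802), a ratio of 47.8 (36.5 to 63.6), and the TEC labels held 854 of its 938 UMIs.

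The share of cells with a UMI followed the same division. Eya1 was detected in 87.0% of TEC and 3.06% of non-epithelial cells, Pax9 in 80.5% and 1.35%, and Tp63 in 78.5% and 1.57%. Pax1 was detected in 65.4% and 1.04%, and Foxn1 in 23.2% (exact Clopper-Pearson interval 21.5 to 25.0) and 0.539%. With each cell thinned to 1000 UMIs, to take out the difference in depth, Foxn1 was still found in 3.69% of TEC and 0.0511% of non-epithelial cells.

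**Figure D1:**
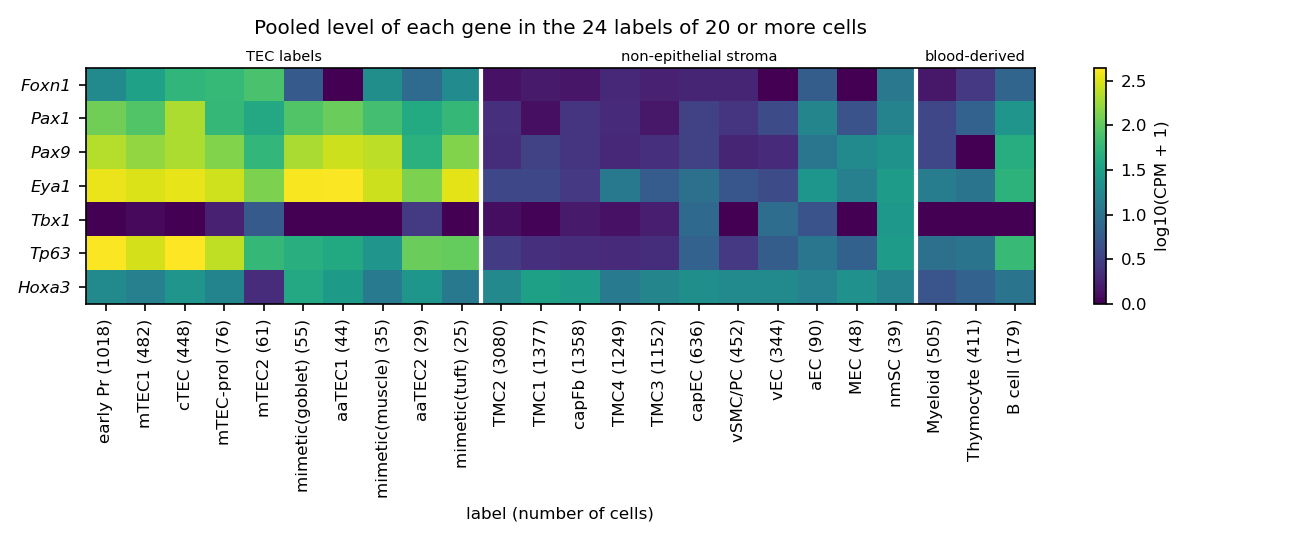
Level of each of the 7 genes (rows) in the 24 labels of at least 20 cells (columns, with cell numbers), as log10(CPM + 1) by colour, with white lines between TEC, non-epithelial and blood-derived labels. Pax1, Pax9, Eya1 and Tp63 are bright in the TEC block, Foxn1 is bright in part of it, Hoxa3 is spread over stroma, and Tbx1 is near 0 except in endothelial labels, nmSC and mTEC2.

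Genes around them were read from lists by function. Of 15 pouch and thymus regulators with enough UMIs, 6 were at least 3-fold higher in TEC and 4 at least 3-fold lower, with a median log2 ratio of -0.04 against 0.14 for all genes. Among the higher ones were Six4 (6.92-fold), a partner of EYA proteins, the Eya1 relatives Eya2 (3.01) and Eya4 (5.52), and Isl1 (109), which acts in foregut development. All 14 tested general epithelial regulators and 11 of 12 basal epithelial genes tied to p63 were higher. The exception was Itga6 at 2.87-fold. Among the basal genes, the keratins Krt5 and Krt14 were 151 and 185 times as high in TEC. Of 8 tested FOXN1-dependent genes 5 were higher, and the exceptions were Dll4 (0.679), Cxcl12 (1.33) and Enpep (0.341), genes that vessels or mesenchyme also express. Kitl was not among the features.

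Across TEC labels, each taken as a whole, Foxn1 was higher in cTEC and in mTEC2 than in mTEC1 or the early progenitor label. It gave 76.5 CPM (59.3 to 97.2) in the 61 cells of mTEC2, 57.8 (45.8 to 72.0) in proliferating mTEC (mTEC-prol) and 54.7 (48.4 to 61.6) in the 448 cells of cTEC. Neighbours in this order did not differ beyond their intervals, and mTEC2 stood at 1.40 times cTEC (1.05 to 1.83). The 482 cells of mTEC1 stood at 31.7 CPM (27.5 to 36.4), and the 1018 early progenitors at 17.0 (14.8 to 19.5). Foxn1 was found in 44.3% of mTEC2 cells, 34.8% of cTEC, 28.8% of mTEC1 and 16.3% of early progenitors, and at 1000 UMIs per cell in 11.7%, 7.52%, 4.41% and 1.67%. The muscle mimetic label gave 19.2 CPM from 10 UMIs in 3 of 35 cells, and its 30 cells of cluster TEC-e, described below, gave 4.62 CPM from 2 UMIs in 1 cell. The tuft label gave 17.8 CPM from 5 UMIs in 2 of 25 cells. The goblet label gave 4.66 CPM from 4 UMIs in 2 cells, and aaTEC2 7.32 CPM from 4 UMIs in 1 cell. In aaTEC1 there were 0 UMIs in 44 cells, where 3 UMIs would have been 4.76 CPM.

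The early progenitor label had 0.311 times the Foxn1 level of cTEC (0.259 to 0.375), and Foxn1 was the only one of the 6 members with enough UMIs that was at least 2-fold apart there. Of 14243 genes with at least 20 UMIs over both labels, 3.76% were at least 2-fold lower and 2.65% at least 2-fold higher in early progenitors. Of the 8 tested FOXN1-dependent genes, 5 were at least 2-fold lower and none higher, with a median log2 ratio of -2.74. Psmb11, Prss16, Ccl25, Ly75 and Dll4 of this list are also marker genes of cTEC. Lower values outside the cTEC label thus follow in part from that label. Ccl25 stood at 0.00801 of its cTEC level, Cd83 at 0.0417, Prss16 at 0.0521, Psmb11, a subunit of the cortical proteasome, at 0.0632, and Dll4, the Notch ligand for T cell commitment, at 0.352. Ly75, Enpep and Cxcl12 stood at 0.593, 0.609 and 1.13. None of 12 basal genes tied to p63 was 2-fold apart.

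Between early progenitors and mTEC1 none of the 6 was 2-fold apart, where 15.2% of 14666 genes were. Foxn1 came nearest, at 0.538 of its mTEC1 level (0.441 to 0.656). The mean of the cells' CPM put it past 2-fold, and so did the cells of cluster TEC-b alone. TEC-b, 1 of the authors' 5 epithelial clusters, held 1388 cells. Within it Foxn1 gave 16.9 CPM (14.4 to 19.7) in 878 early progenitors, 42.2 (33.4 to 52.7) in 176 mTEC1 cells and 63.2 (55.1 to 72.3) in 311 cTEC. The early progenitors thus had 0.400 of the mTEC1 level (0.304 to 0.531) and 0.267 of the cTEC level (0.217 to 0.329). Of 12987 genes, 2.19% were at least 2-fold lower and 2.73% higher in these early progenitors than in mTEC1. Against cTEC, 2.64% of 13276 genes were lower and 3.03% higher.

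**Figure D2:**
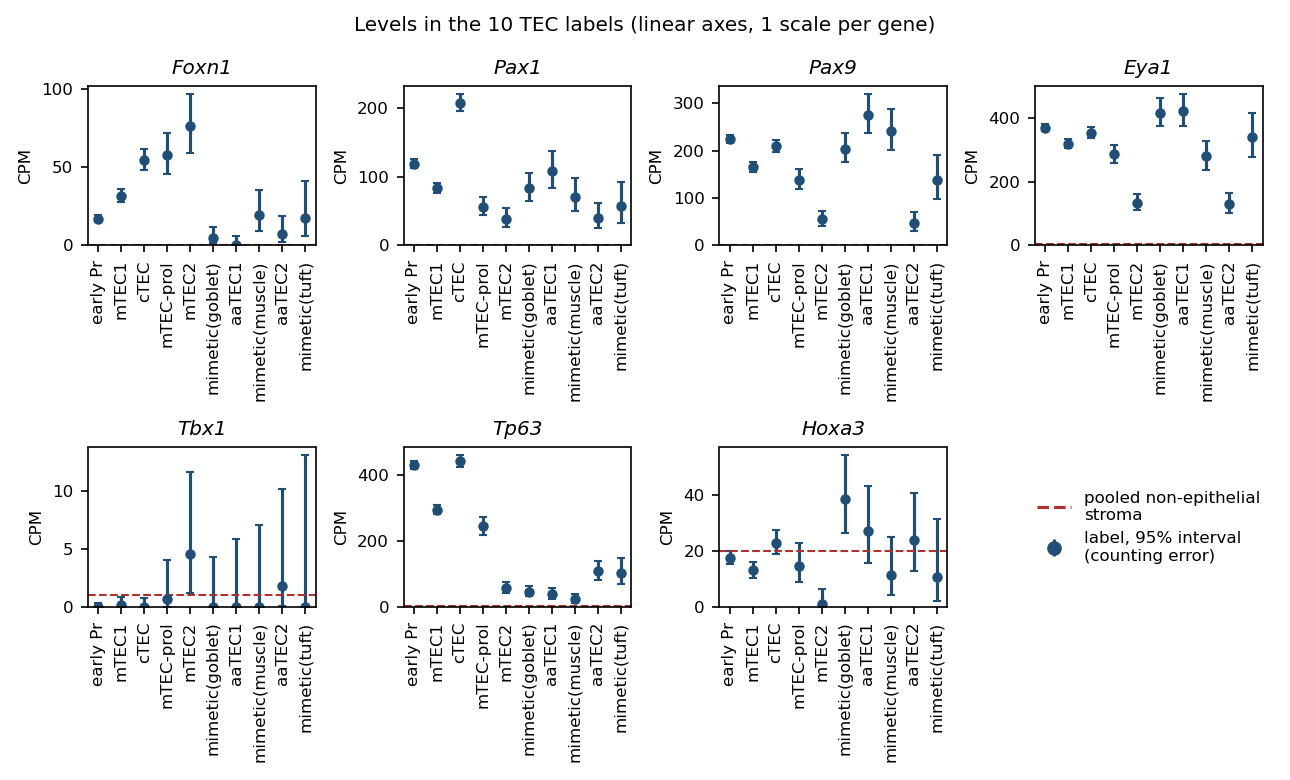
Level of each gene in CPM (vertical axes, linear, 1 scale per gene) in the 10 TEC labels, with bars for the 95% counting interval and a dashed line at the pooled non-epithelial level. Foxn1 peaks in mTEC2, mTEC-prol and cTEC, Pax1 in cTEC, Tp63 is high in early Pr, cTEC and mTEC1 and low in mimetic labels, and Hoxa3 lies on both sides of the dashed line, from 1.14 CPM in mTEC2 to 38.5 in the goblet label.

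Pax1 was highest in cTEC at 207 CPM (195 to 220), 1.75 times the early progenitor label (1.61 to 1.90), which had 119 (112 to 125). Below cTEC no neighbouring pair of the 10 TEC labels differed beyond its interval, from early progenitors through aaTEC1 (108), the goblet label (82.8) and mTEC1 (82.7) to aaTEC2 (40.3) and mTEC2 (38.8). Against mTEC1, cTEC had 2.51 times the level (2.26 to 2.79), the only one of the 6 past 2-fold between these labels. Of 13882 genes, 5.50% were at least 2-fold higher and 9.90% at least 2-fold lower in cTEC. Within cluster TEC-b the ratio of Pax1 was 1.41 (1.22 to 1.63), with 204 CPM in cTEC and 145 in mTEC1, and no member was 2-fold apart, where 3.74% of 11547 genes were higher and 1.84% lower. The 2-fold difference of Pax1 thus rested on cells outside that cluster.

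In the FOXN1-dependent list 7 of 8 tested genes were at least 2-fold higher in cTEC than in mTEC1, and Enpep, at 1.70 times, was not. Psmb11, Prss16, Ccl25, Ly75 and Dll4 of this list are also marker genes of cTEC. Their higher level in cells labelled cTEC thus follows in part from the label. Ccl25 was 181 times, Prss16 37.0 times, Cd83 35.2 times and Psmb11 22.4 times as high, Psmb11 on 52 against 3 UMIs. Within TEC-b 7 of 8 were again at least 2-fold higher, Ccl25 by 71.5 times and Prss16 by 24.8 times. Foxn1 itself was 1.73 times as high in cTEC as in mTEC1 (1.43 to 2.08), and 1.50 times within TEC-b (1.15 to 1.97). Whether the listed genes followed Foxn1 was not tested.

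Pax9 and Eya1 were high in all TEC labels but mTEC2 and aaTEC2, each label taken as a whole, mimetic labels included. Pax9 ran from 276 CPM (237 to 320) in aaTEC1 through the muscle label at 242, early progenitors at 223 (215 to 232), cTEC at 209 (196 to 222) and the goblet label at 204 to mTEC1 at 166 (156 to 176). Both mTEC-prol and the tuft label gave 139 CPM, and mTEC2 and aaTEC2 were lowest at 54.8 (40.4 to 72.7) and 47.6 (31.1 to 69.7). Eya1 was highest in aaTEC1 at 424 CPM (374 to 477) and the goblet label at 417, followed by early progenitors at 371 (360 to 382), cTEC at 355 (339 to 372), the tuft label at 342 and mTEC1 at 319 (306 to 333). It too was lowest in mTEC2, at 134 CPM (111 to 160), and aaTEC2, at 132. From the step above to mTEC2, Pax9 differed 2.53-fold (1.61 to 3.94) and Eya1 2.10-fold (1.63 to 2.70). Among cTEC, the 72 cells of cluster TEC-a gave only 51.1 CPM of Pax9 and 27.2 of Eya1. The 311 cTEC of TEC-b gave 258 and 438.

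In mTEC2, marked by 410 UMIs of Aire, the regulator of promiscuous antigen expression, Foxn1 was high while Tp63, Pax9, Eya1 and Hoxa3 were low. Against mTEC1, Foxn1 was 2.41 times as high (1.80 to 3.20). Tp63 stood at 0.194 (0.143 to 0.257), Pax9 at 0.331 (0.243 to 0.442), Eya1 at 0.419 (0.344 to 0.505) and Pax1 at 0.470 (0.322 to 0.665). Hoxa3 gave 1 UMI against 84, a ratio of 0.0875 (0.00219 to 0.501). Thus 1 gene was at least 2-fold higher and 5 lower, where 15.6% and 14.2% of 13597 genes were, in a pair of labels chosen after the values were seen. Of the 12 basal genes tied to p63, 9 were at least 2-fold lower, with Krt14 at 0.0647 and Krt5 at 0.252. Of 7 tested FOXN1-dependent genes, 3 were at least 2-fold higher and 1 lower, with a median log2 ratio of 0.08. The low value of Pax1 did not hold within cluster TEC-d, which held 57 of the 61 mTEC2 cells and 232 mTEC1 cells. There Pax1 gave 40.4 CPM (28.0 to 56.4) in mTEC2 and 54.8 (47.5 to 62.9) in mTEC1, a ratio of 0.737 (0.497 to 1.06). The mean of the cells' CPM also ended its 2-fold call, and without cells with 3 or more thymocyte-gene UMIs Eya1 stood at 0.508. In TEC-d, Foxn1 gave 79.6 CPM (61.7 to 101) in mTEC2 and 30.2 (24.9 to 36.4) in mTEC1, a ratio of 2.63, and Tp63 59.4 (44.1 to 78.3) and 294 (277 to 312), a ratio of 0.202. Pax9 stood at 0.403 and Eya1 at 0.399, and Hoxa3 gave 1 UMI against 44, so that 1 member was higher and 4 lower, where 14.8% and 15.6% of 12554 genes were. In TEC-d 4 of the 7 FOXN1-dependent genes were at least 2-fold higher and 0 lower. The mTEC2 cells of TEC-d had 5835 CPM of the 6 TEC markers against 10512 in its mTEC1 cells. Krt14, at 240 against 2609, Krt5, at 876 against 3052, Epcam and Cdh1 were lower. Krt8 and Krt18 were higher, at 1992 against 1483 and 2004 against 1496. These mTEC2 cells also had 353 against 26.5 CPM of 5 myeloid markers and 192 against 39.7 of 10 thymocyte markers. The mesenchyme markers were higher too, with Dcn at 1575 against 909 CPM, Col1a1 at 424 against 181 and Col1a2 at 415 against 213. So were Lum, at 113 against 72.4, and Pdgfra, at 54.6 against 20.8. The part of these in the values was not tested.

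Tp63 was high in the cTEC, early progenitor, mTEC1 and mTEC-prol labels, each taken as a whole, and low in mTEC2 and the mimetic labels. It gave 442 CPM (423 to 461) in cTEC, 430 (419 to 442) in early progenitors, 294 (281 to 308) in mTEC1 and 244 (219 to 272) in mTEC-prol. Among cTEC, the 311 cells of cluster TEC-b gave 566 CPM and the 72 cells of cluster TEC-a 30.6. Those TEC-a cells had more Ccl25, at 2348 against 271 CPM, and less Krt14, at 167 against 5370. The aaTEC2 and tuft labels gave 108 and 103 CPM, mTEC2 57.1, the goblet label 45.5 (32.3 to 62.2), aaTEC1 39.7 (25.7 to 58.5) and the muscle label 23.0 (11.9 to 40.2). Most cells of these last 3 labels lay in cluster TEC-e and were lower: there 36 of 44 aaTEC1 cells gave 10.5 CPM (3.87 to 22.9), 49 of 55 goblet cells 20.7 (11.8 to 33.5) and 30 of 35 muscle cells 18.5 (7.98 to 36.4). Tp63 was found in 92.0% of early progenitors, 78.6% of cTEC and 82.0% of mTEC1, but in 11 of 55 goblet and 7 of 35 muscle mimetic cells, whose median depth was not lower (14963 and 13557 UMIs against 10977 in early progenitors).

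Hoxa3, the patterning gene of the pouch, did not separate epithelium from mesenchyme in the adult organ. It gave 17.7 CPM (16.2 to 19.3) in TEC and between 19.1 and 20.9 in non-epithelial cells, a ratio of 0.883 (0.799 to 0.975). The highest levels were 38.5 CPM (26.5 to 54.0) in the goblet label, 30.9 (28.0 to 33.9) in TMC1 and 27.3 (24.8 to 30.0) in capFb. TMC2 gave 16.7 (15.2 to 18.3), TMC3 15.1 and TMC4 11.0 (9.16 to 13.1), and the endothelial labels vEC and aEC gave 17.4 and 13.7. Blood-derived labels stood between 3.98 CPM in myeloid cells and 9.45 in B cells, below the mesenchymal labels. Between cTEC and mTEC1 the ratio was 1.75 (1.31 to 2.35).

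Other genes of the HOXA cluster, which lie beside Hoxa3, were mixed. Of 5 tested none was at least 3-fold higher in TEC and 2 were at least 3-fold lower, where 15.8% and 11.2% of all genes were. Hoxa2 was at 1.46 times and Hoxa4 at 0.882 times the non-epithelial level, and Hoxa5 at 0.138. The paralogs Hoxb3 and Hoxd3 stood at 0.339 and 0.120. Genes of this cluster lie close together and overlap transcripts of the other strand, and the use of strand in counting is not given in the sources used here.

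The authors' 5 epithelial clusters, which cut across the labels, showed 2 groups of cells in which part of the set was low. The comparisons between clusters were not among those planned ahead, so the counts of members in them are descriptions. Cluster TEC-a held 188 cells, not all of them with a TEC label, and 72 of them were cTEC. These 72 had a median of 4518.5 UMIs against 10757 in the 311 cTEC of TEC-b. In these TEC-a cells Pax1 was 1.74 times as high (1.48 to 2.03), at 354 against 204 CPM. Eya1 gave 27.2 against 438 CPM, a ratio of 0.0622 (0.0355 to 0.101), Tp63 30.6 against 566, a ratio of 0.0541 (0.0320 to 0.0858), and Pax9 51.1 against 258, a ratio of 0.198 (0.133 to 0.285). Foxn1 gave 35.7 against 63.2 CPM, a ratio of 0.565 (0.343 to 0.886). At 1000 UMIs per cell Pax1 was found in 39.4% of TEC-a and 16.7% of TEC-b cTEC. Ccl25 was higher in the TEC-a cells, at 8.66 times, Psmb11 at 5.55 times and Cd83 at 20.4 times, while Ly75 stood at 0.165, Cxcl12 at 0.232 and Dll4 at 0.413, on 3 UMIs. Thus 3 members were at least 2-fold lower and none higher, and 11 of the 12 basal genes tied to p63 were lower. The TEC markers were mixed. In the TEC-a cells Epcam gave 71.5 CPM against 1175 and Cdh1 13.6 against 153. Krt5 gave 556 against 3954 and Krt14 167 against 5370. Krt8 and Krt18 went the other way, at 1064 against 708 and 711 against 455. All 6 summed to 2583 against 11814. The 5 mesenchyme markers summed to 1064 CPM against 427. The part of these in the values was not tested. Many genes differed between these cells: 13.4% of 11097 genes were at least 2-fold higher and 30.0% lower.

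Cluster TEC-e held 133 cells, among them 49 of the goblet label, 36 of aaTEC1 and 30 of the muscle label, with a median of 15277 UMIs. Pax9 and Eya1 were near their TEC-b levels there, and Foxn1 and Tp63 were far below. Pax9 gave 233 CPM against 248 in TEC-b, a ratio of 0.937 (0.851 to 1.03), Eya1 365 against 401, a ratio of 0.911, and Pax1 83.3 against 149, a ratio of 0.560. Hoxa3 gave 29.5 against 17.7, a ratio of 1.67 (1.25 to 2.21). Foxn1 gave 2 UMIs, or 0.952 CPM, against 30.4, a ratio of 0.0313 (0.00378 to 0.114). Tp63 gave 14.8 against 480 CPM, a ratio of 0.0307 (0.0209 to 0.0437). Foxn1 and Tp63 were the 2 members at least 2-fold lower and none was higher, where 16.1% of 14145 genes were lower and 14.8% higher. Of the 12 basal genes tied to p63, 11 were at least 2-fold lower, with Krt5 at 0.0139, and of 8 FOXN1-dependent genes 5 were lower and 2, Dll4 at 5.68 times and Enpep at 4.11 times, higher. Epcam was not lower in TEC-e, at 1758 against 1319 CPM, and neither were Krt8, Krt18 and Cdh1. Krt5, at 47.6 against 3414 CPM, and Krt14, at 36.2 against 4784, were lower, and the 6 TEC markers summed to 4725 against 10671. The 5 mesenchyme markers summed to 2560 CPM against 456, and their part in these values was not tested.

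Cluster TEC-c carried more mesenchymal RNA than TEC-b, with 14603 against 456 CPM for the 5 mesenchyme markers and a median of 17266 UMIs. In its TEC-labelled cells Tp63 stood at 0.462, Pax9 at 0.506, Pax1 at 0.542, Foxn1 at 0.580 and Eya1 at 0.598 of the TEC-b level, and Hoxa3 at 1.26 times (0.984 to 1.61). Only Tp63 was past 2-fold, where 5.32% of 14404 genes were lower and 11.8% higher. The part of the mesenchymal RNA in these values was not tested. Without TEC-c the counts of members past 2-fold between labels were the same.

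**Figure D3:**
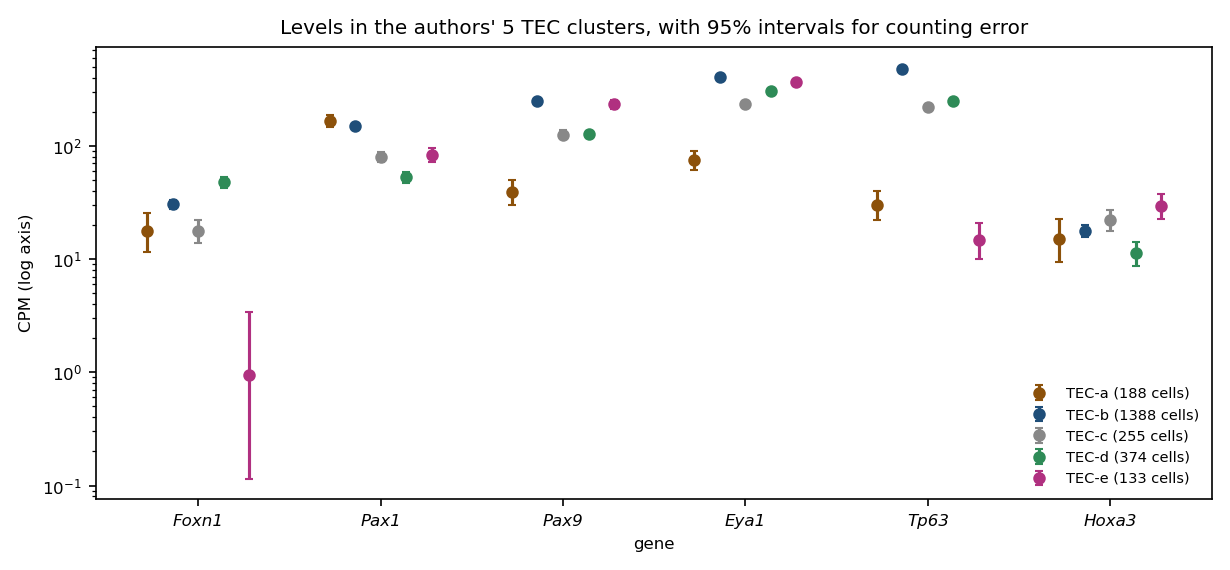
Level in CPM (log axis) of 6 genes in the authors' 5 TEC clusters, by colour, with bars for the 95% counting interval. All cells of a cluster are counted, also those without a TEC label, and 72 of the 188 cells of TEC-a are cTEC. Foxn1 is at 0.952 CPM and Tp63 at 14.8 CPM in TEC-e, where Pax9 and Eya1 stay near TEC-b, and in TEC-a Pax9, Eya1 and Tp63 lie below TEC-b while Pax1 does not.

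Cell by cell, most TEC carried several of the genes together. Of 2295 TEC, 78.2% had UMIs of at least 3 of Pax1, Pax9, Eya1 and Tp63, 45.4% had all 4, and 3.40% had none. At least 3 were found in 89.4% of early progenitors, 77.7% of cTEC, 75.3% of mTEC1, 63.6% of aaTEC1 and 60.0% of goblet mimetic cells, but in 16.4% of mTEC2. Among cTEC, at least 3 were found in 92.9% of those in TEC-b and 12.5% of those in TEC-a, which were shallower. In the 5 fibroblast labels at least 90.7% of cells had none of the 4. Of the 532 TEC with a Foxn1 UMI, 82.1% also had Pax9, 82.0% Tp63 and 69.9% Pax1, near the 80.5%, 78.5% and 65.4% of all TEC. In mTEC2, 5 of 27 Foxn1-positive cells, or 18.5%, had Tp63, against 16.4% of all its cells, and 9, or 33.3%, had Pax1, against 23.0%. Cells with both genes were deeper, with a median of 15529 UMIs for Tp63 and 26344 for Pax1 against 13378 in the label.

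Tbx1, which patterns the pouches and restrains the thymic fate, was almost absent from TEC and found mainly in a few endothelial cells. TEC gave 7 UMIs, or 0.242 CPM (0.0974 to 0.499), and non-epithelial cells 97, or 1.05, so that the level outside was 4.35 times as high (2.03 to 11.1), a direction that turned after thinning, where 14 UMIs were left. No UMI was found in 1018 early progenitors, which allows up to 0.295% of cells with a UMI at 3 counts and sets no limit on cells that express the gene at a low level, nor in 448 cTEC or 1095 blood-derived cells. Of the 7 TEC UMIs, 4 lay in 2 mTEC2 cells. By label, nmSC gave 24.7 CPM from 7 UMIs, vEC 7.74 (5.14 to 11.2) from 28 and capEC 6.97 (4.73 to 9.89) from 31.

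Of all 104 Tbx1 UMIs, 50 fell in the authors' cluster Endo-2, with 243 cells and 19.2 CPM (14.3 to 25.3), and 20 in Endo-1, with 882 cells and 2.89 CPM. The 29 Endo-2 cells with UMIs of both Prox1 and Lyve1, genes that define lymphatic endothelium and that were picked after the values were seen, held 38 of the 50. They gave 174 CPM (123 to 239), and 20 of the 29, or 69.0% (49.2 to 84.7), had a Tbx1 UMI. The other 214 Endo-2 cells gave 5.03 CPM (2.60 to 8.79), with 6 positive cells. Over the library 31 cells had both genes, labelled capEC (17), vEC (5), nmSC (4), aEC (2), and aaTEC2, mTEC1 and capFb (1 each), so no label of the annotation collects them.

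**Figure D4:**
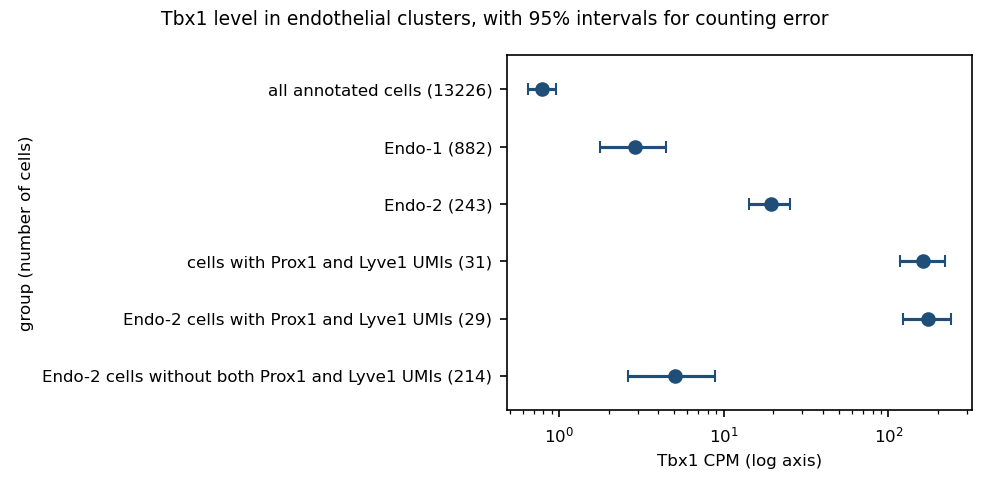
Level of Tbx1 in CPM (horizontal log axis) in groups of cells, with cell numbers and bars for the 95% counting interval. The 29 Endo-2 cells with Prox1 and Lyve1 UMIs stand at 174 CPM, the other Endo-2 cells at 5.03 and all annotated cells at 0.790.

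Low counts of the epithelial genes in other cells were set against free epithelial RNA in the same cells. UMIs of the 6 TEC markers in a group, times the ratio of each gene to those markers in TEC, gave a background count. It is the count that free RNA would bring if all those marker UMIs were free RNA. In pooled non-epithelial cells Tp63 had 0.839 of that count (0.723 to 0.969), Pax9 1.24, Pax1 1.69, Eya1 1.87 and Foxn1 2.99 (2.27 to 3.88). Hoxa3 had 162 times the count (155 to 169). The count takes in all TEC marker UMIs, also where a few mixed cells hold them. The source of the UMIs outside the epithelium was not tested. In the thymocyte library, with a median of 3994 UMIs per cell, Foxn1 gave 2 UMIs in 8546 annotated cells, at 0.476 of the count, and Tp63 57, at 1.17.

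TMC4, mesenchymal cells with 22085 CPM of the chemokine Ccl21, stood apart for Eya1. It gave 124 UMIs there, or 10.7 CPM (8.93 to 12.8) in 6.89% of cells, against 1.73 to 4.83 CPM in the other 4 fibroblast labels. The background count set by the TEC markers was 22.3 UMIs, so the observed count was 5.57 times that (4.63 to 6.64). Pax1, Pax9 and Tp63 in TMC4 stood at 1.71, 0.941 and 0.583 of their background counts. At 1000 UMIs per cell Eya1 was found in 15 of 1249 TMC4 cells, or 1.20%, against at most 0.438% in the other 4.

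The B cell label also carried the epithelial genes, with 60.9 CPM of Tp63 and 43.1 of Pax9. Of its 179 cells, 33 had at least 3 TEC marker UMIs, and these held all 18 Foxn1 UMIs, 166 of 174 of Tp63 and 122 of 123 of Pax9. Without them the levels were 0 for Foxn1, 3.63 CPM for Tp63 and 0.454 for Pax9, while Hoxa3 was 10.4 against 9.45.

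**Figure D5:**
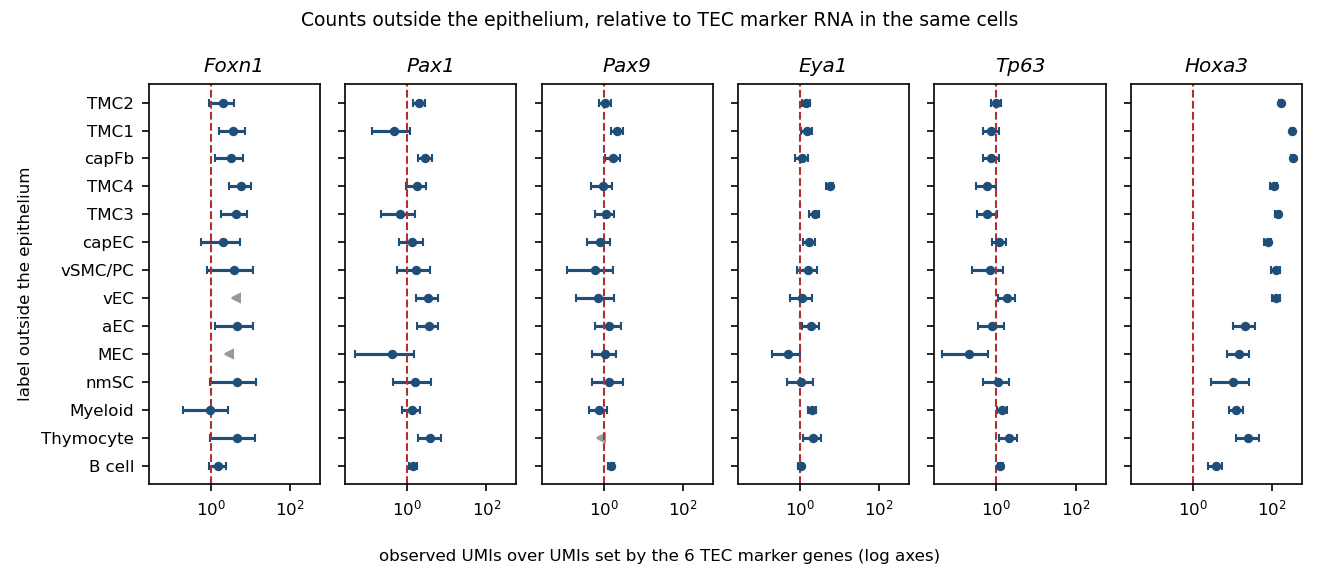
Observed UMIs of 6 genes over those set by the 6 TEC marker genes in the same cells (log axes), in 14 labels outside the epithelium, with bars for the 95% counting interval, grey triangles for the upper limit where no UMI was found, and a dashed line at 1. Pax9 and Tp63 lie near 1 in most labels, Eya1 in TMC4 lies at 5.57, and Hoxa3 lies far above 1 in mesenchyme and endothelium.

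Over the 24 labels of at least 20 cells, 13999 genes were ranked by Pearson's r of log2(CPM + 1) with each member. These labels share 1 library and differ in depth and cell number, so r is a description. With labels of at least 50 cells the nearest genes changed for all 7 members, and with 0.1 added in place of 1 for 3. The genes most like Pax9 were Epcam (0.98), Perp, Cadm1, Isl1 and Eya1, and among the 5 most like Eya1 were Epcam (0.98), Cadm1, Cdcp1 and Pax1. Cadm1 (0.97), Eya1, Epcam and Pak6 were among the 5 most like Pax1, and Krt5 (0.97), Fat2, Fermt1, Krt15 and Ctnnd2 most like Tp63. Foxn1 was most like Ppp1r14c (0.91), Grip1 and the class II antigen presentation genes Cd74, RT1-Bb and RT1-Db1. The 24 labels include the B cell label, whose Foxn1 UMIs all lay in cells with TEC marker UMIs. For Hoxa3 the nearest were Camk1 (0.85), Lman1, Washc3, Smpd1 and Tspyl4, and for Tbx1 Ttc9 (0.92), Scgb1a1, Apba2, Nwd2 and Lrrc70, on 104 UMIs. Among the members, Pax1 and Eya1 had r of 0.97, Pax9 and Eya1 0.96, Pax1 and Tp63 0.93 and Foxn1 and Tp63 0.82, while Foxn1 and Hoxa3 had -0.32.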

How the data were processed

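Stromal cells and thymocytes were each measured as 1 droplet library. The deposited matrices hold counts of UMIs for each gene in each barcode, from Cell Ranger 8.0.0 on mRatBN7.2 and handled in Seurat 5.3.0, per the submitters' processing notes. The annotation and the use of strand are not given in the sources used here. The deposited metadata of the authors give each cell's label, its cluster and its percent of mitochondrial UMIs. Labels are the projected label, or the cluster where there was none.

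UMIs were summed per label and divided by 1000000 UMIs of the label (CPM), with exact Poisson intervals. Clopper-Pearson intervals were used for shares and exact conditional ones for ratios. Genes needed 20 UMIs, and a difference had to reach 3-fold between TEC and non-epithelial cells or 2-fold between TEC labels. Where a floor was used, either side of a ratio under 3 UMIs was put at 3. Ratios given with an interval were taken on the UMIs as counted. Cells were thinned to 1000 UMIs (seed 7), leaving out 83 shallower ones. Likeness was ranked among genes of at least 100 UMIs, and the 5 nearest genes of each member were taken. UMIs are not free of amplification error, and intervals and limits cover counting error only.

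The members and lists were chosen with earlier results of these data known. Named genes are the members, genes of the fixed lists and the nearest 5, of which some are not reported here. Alternatives were filters on depth, on thymocyte genes and on the top percentile of UMIs, other totals, the mean of cells and clusters in place of labels. Those with TEC-a or TEC-c left out, with TEC-b or TEC-d alone, without TEC cells outside the clusters and without non-epithelial cells carrying TEC markers, and all those of mTEC2 over mTEC1, were chosen after seeing the data. The comparisons of TEC-a, TEC-c and TEC-e with TEC-b were also not planned ahead. Doublets were neither called nor removed here. The comparison script was tested on simulated data. The software was matplotlib 3.10.9, pandas 2.3.3, SciPy 1.17.1 and NumPy 2.4.6 under Python 3.11.15.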

Additional observations from a re-analysis of the deposited data

Results flagged for a closer look

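The 2934 stromal barcodes without annotation, which entered no comparison above, carried all 7 genes above their level in the thymocyte library. They gave 26.2 CPM of Foxn1, 35.9 of Pax1, 52.9 of Pax9, 189 of Eya1, 0.808 of Tbx1, 136 of Tp63 and 13.0 of Hoxa3. Their median was 1219.5 UMIs. Of these barcodes 155, or 5.28%, had at least 20 UMIs of the 6 TEC markers, with a median of 7804 UMIs, and they held 51.1% of the Foxn1 UMIs, 66.8% of those of Pax9, 59.7% of those of Tp63 and 31.0% of those of Hoxa3. There were 67 barcodes with more genes than any annotated cell, and they held 33.0% of the Foxn1 and 25.2% of the Tp63 UMIs.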

How the results depend on the processing

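No paired analysis was possible because every group consisted of 1 library. The count of 5 members at least 3-fold higher in TEC was the same under every alternative that could be run. The members at least 2-fold apart between cTEC and mTEC1 went from 1 to 0 with TEC cells of cluster TEC-b only. Between early progenitors and mTEC1 they went from 0 to 1 (Foxn1) with the mean of the cells' CPM and with TEC-b only, and to 2 (Foxn1 and Hoxa3) with cells thinned to 1000 UMIs. Between early progenitors and cTEC they went from 1 to 2 (Foxn1 and Pax1) with the mean of the cells' CPM and with thinning. The ratio of Tbx1 in TEC over non-epithelial cells turned to 1.17 after thinning, on 14 UMIs, that of Hoxa3 in early progenitors over cTEC to 1.44, on 26 UMIs, and that of Hoxa3 in mTEC2 over mTEC1 to 5.95, on 0 against 4 UMIs with 3 put for the 0, so no direction was detectable at that depth. The ratio of Pax1 in early progenitors over mTEC1 turned from 1.43 to 0.900 with TEC-b only. The causes were not tested. Of 1666 levels recomputed under the alternatives, 200 moved beyond their interval, 93 of them after thinning. Between mTEC2 and mTEC1 the members 2-fold apart went from 6 to 5 with TEC-d only and with the mean of the cells' CPM (both without Pax1), and without cells with thymocyte-gene UMIs (without Eya1). Of 331 ratios, 63 moved, and the nearest genes changed in 10 of 14 cases. The clusters in place of labels gave no cTEC, mTEC1 or early progenitor values. With 1 library, differences between animals or preparations were not measured.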
